A study of Mus musculus with 8 samples.

Results

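DNA replication and S phase genes are the genes a cell needs to copy its chromosomes once before it divides. The 47 genes listed here were matched by symbol to probe sets, the groups of short probes that read 1 transcript on an Affymetrix array. A probe set was used only where its annotation gave exactly 1 symbol, and for a gene with several such probe sets the one with the highest mean over all 8 arrays was taken. This found 45 of the 47 genes among 22180 genes on the array. Rfc4 and Ccne2 lie only on probe sets that share a second symbol and are not given values here.

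Expression was measured in CD4+ T cells of C57BL/6 mice in a transfer model of colitis, in 4 Irak1-/- and 4 wt samples. Irak1-/- cells carried the CD45.2 form of CD45 and wt cells the CD45.1 form. Equal numbers of both, sorted as CD4+CD62L+ cells, were injected together into Rag1-/- mice, which make no mature T or B cells of their own. On day 14 the CD3+CD4+ cells of either form were sorted from the mesenteric lymph nodes, with a purity above 99.5% per the labels. Each of 4 experiments pooled 2 recipients and gave 1 Irak1-/- and 1 wt array, called a pair here, so both arrays of a pair come from the same recipients. IRAK1 is a kinase that relays signals from Toll-like receptors and receptors of the IL-1 family. Genotype and CD45 form go together in every sample and cannot be told apart, and neither the deleted part of Irak1 nor the age of the mice is given in the labels. All levels are log2 values, so a difference of 1 is a doubling.

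Copying is prepared in G1, when the origin recognition complex, Cdc6 and Cdt1 load the ring-shaped MCM helicase onto DNA. Kinases then switch the helicase on, polymerases copy both strands, and enzymes of nucleotide synthesis supply the building blocks. Many of these genes are switched on together before S phase by E2F transcription factors, once cyclin-dependent kinases inactivate the retinoblastoma family. Naive T cells are quiescent and express little of this machinery, whereas T cells that expand after transfer into lymphocyte-free hosts divide repeatedly. In bulk RNA, fewer cells in cycle and less RNA per cycling cell cannot be told apart.

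Sites that read like E2F binding sites were looked up in the promoters of the members. Any relation of these sites to the levels on the arrays was not tested. RefSeq promoter windows of build GRCm38.p6, from 250 bases before to 50 bases after the gene start, existed for 39 of the 45 members. Letters searched on both strands were TTTGGCGC, TTTCGCGC, TTTCCCGC and TTTGCCGC, which can overlap each other. At least 1 of them stood in 16 of 46 windows of the members (34.8%), against 2.26% of 32851 windows of all genes and 3.77% of 12967 windows of the genes tested. The members were chosen for their role in replication, and a match is no proof of binding. TTTGCCGC had no match in these windows, while CCAAT, the letters bound by the factor NF-Y, stood in 56.5% of the members' windows and 37.4% of all windows.

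In 9 members a match lay before the gene start, and the stretch around it is given 5′ to 3′ on the strand of the gene, with the E2F-like letters in capitals.
Mcm5: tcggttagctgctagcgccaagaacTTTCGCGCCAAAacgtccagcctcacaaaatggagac
Mcm6: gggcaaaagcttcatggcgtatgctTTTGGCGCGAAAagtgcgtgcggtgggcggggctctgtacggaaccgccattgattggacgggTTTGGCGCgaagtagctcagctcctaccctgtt
Mcm7: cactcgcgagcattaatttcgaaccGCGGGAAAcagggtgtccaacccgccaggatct
Orc1: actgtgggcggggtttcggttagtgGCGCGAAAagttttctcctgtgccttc
Cdc6: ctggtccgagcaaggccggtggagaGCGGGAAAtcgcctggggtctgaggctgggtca
Gins3: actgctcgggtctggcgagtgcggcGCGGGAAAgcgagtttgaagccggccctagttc
Pola1: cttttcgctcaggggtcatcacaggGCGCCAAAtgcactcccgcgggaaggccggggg
Rfc3: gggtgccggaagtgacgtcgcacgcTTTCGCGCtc
Uhrf1: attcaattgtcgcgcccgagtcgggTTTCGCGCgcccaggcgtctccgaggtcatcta
Mcm5 and Mcm6 each hold a site in which matches on opposite strands overlap, and Mcm6 holds a further match nearer its start. The stretches lie at chr8:75109331-75109392 (plus strand) for Mcm5, chr1:128359720-128359840 (minus) for Mcm6, chr5:138172016-138172073 (minus) for Mcm7 and chr4:108579402-108579453 (plus) for Orc1. Those of Cdc6 and Gins3 lie at chr11:98907988-98908045 (plus) and chr8:95633493-95633550 (plus). Those of Pola1, Rfc3 and Uhrf1 lie at chrX:93632261-93632318 (minus), chr5:151651209-151651243 (minus) and chr17:56304103-56304160 (plus). In Cdt1, Clspn, E2f2, Lig1, Mcm3, Pold1 and Pole2 the matches stood only in the transcribed bases of the window and are not printed.

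The Irak1-/- array of pair 3 stood apart from the other arrays. Across the 13308 genes tested it correlated with the others at 0.957 to 0.97, against 0.976 to 0.986 among the other 7. T cell genes were present on all arrays: Cd3e, a chain of the T cell receptor complex, averaged 10.69 in Irak1-/- and 10.73 in wt arrays, and Cd4 averaged 8.92 and 9.04. The mean over the 6 T cell markers found was 10.13 on the Irak1-/- array of pair 3 and 10.29 to 10.41 on the other 7. Of 14 myeloid markers, 5 of the 12 tested were higher in Irak1-/- arrays, and their levels summed on the linear scale ran from 708 to 1553 in Irak1-/- and from 307 to 360 in wt arrays. Of the 8 markers of NK, ILC and CD8 T cells none passed, and their sums were 857 to 1014 in Irak1-/- and 1171 to 1398 in wt arrays. These sums weigh most the highest marker, Klrd1, which averaged 9.34 in Irak1-/- and 9.90 in wt arrays. Of the 8, 3 had positive and 5 negative differences. Sums were 100.1 to 118.5 in Irak1-/- and 99.3 to 130.0 in wt arrays for 7 B and plasma cell markers, and 276 to 342 and 301 to 333 for 10 epithelial and stromal markers. Only 2 of 7 erythroid markers had a probe set of their own.

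The replication genes did not separate the genotypes. Of 45 members, all with a mean level that passed the filter on low values, none was higher and none lower in Irak1-/- cells at a limma adjusted p under 0.05. Among the 13308 genes tested, 0.0676% were higher and 0.00751% lower at that threshold. At an unadjusted p under 0.05 the members also gave 0 higher and 0 lower, while 2.88% of all genes tested were higher and 3.82% lower. The log2 differences, Irak1-/- minus wt, ran from -0.32 for Cdt1 to 0.22 for Rrm2, with a median of -0.05 beside -0.03 over all genes tested. Of the members 16 were positive and 29 negative, and of the 13308 genes tested 7738 were negative. The groups overlapped for every member. Among all genes tested, 1.17% had all Irak1-/- arrays above all wt arrays and 1.86% had them all below. At such shares few or none of 45 genes would be set apart.

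These differences were bounded by the fit. The 95% confidence interval lay between -1 and 1 for 45 of 45 members and between -0.5 and 0.5 for 40 of them. The lowest bound was -0.87, for Cdt1, and the highest was 0.50, for Pole2. Dropping only the Irak1-/- array of pair 3, and the pair terms with it, left 37 members positive and 8 negative, and the median turned to 0.07. That fit kept the wt array of pair 3, so differences in level between pairs entered its genotype difference. With the pair terms kept, the same drop left 24 positive and 21 negative. With both arrays of pair 3 left out, 24 were positive and 21 negative with a median of 0.0037, and again no member passed. Leaving out pair 2 also turned the median above 0, to 0.02.

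What did stand out among the members was their direction within each pair. In pair 1, 38 of 45 members read higher in Irak1-/- than in wt cells, with a median difference of 0.23, while 49.5% of all genes tested were higher there. In pair 2 only 5 of 45 did (42.7% of all genes), with a median of -0.27, and in pair 3 only 9 (42.5% of all genes), with a median of -0.26. In pair 4, 30 of 45 did (50.2% of all genes), with a median of 0.09. The medians over all genes tested stayed near 0 in each pair, at -0.0037, -0.04, -0.06 and 0.0021. The full order of signs, higher in pairs 1 and 4 and lower in pairs 2 and 3, was shown by 22 members (48.9%) and by 9.46% of all genes tested. This pattern was noticed in the data, and no test of it as a set was made.

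**Figure D1:**
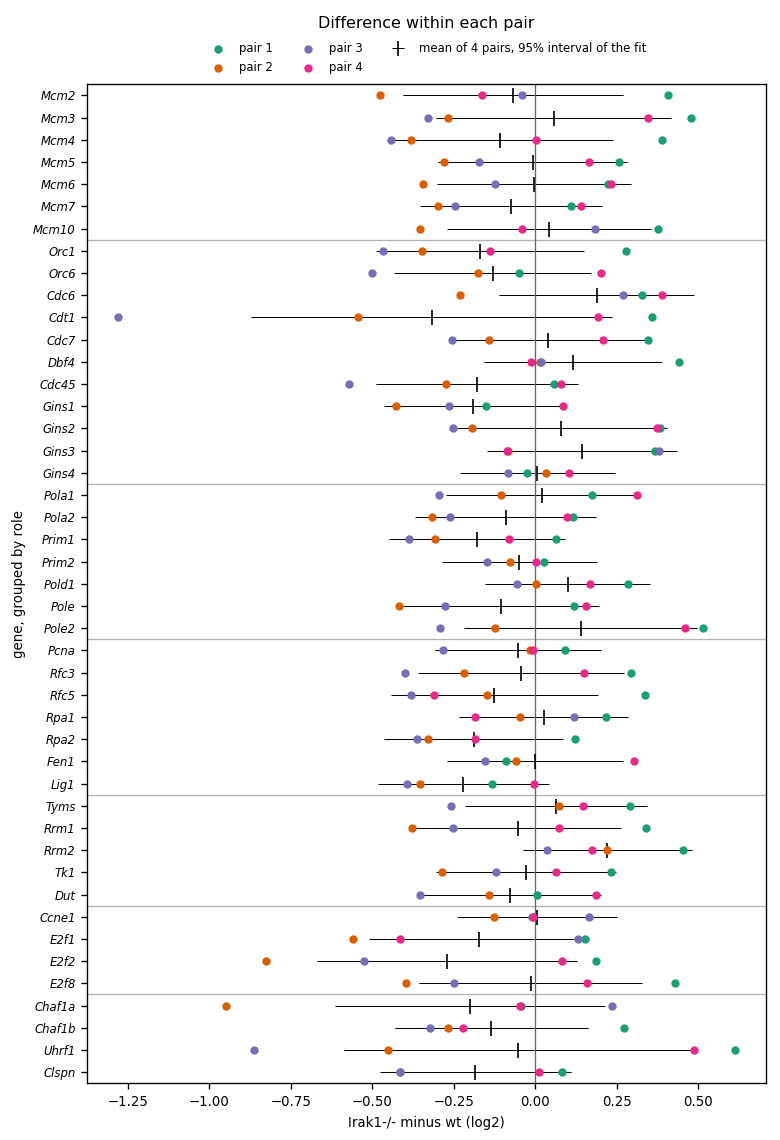
Difference between the Irak1-/- and wt array of each pair (x axis, log2) for the 45 members (y axis, grouped by role), 1 coloured point per pair. Black ticks and lines are the mean of the 4 pairs and its 95% confidence interval from the fit, and green points (pair 1) lie mostly right of 0 while orange (pair 2) and violet (pair 3) points lie mostly left of it.

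Levels also differed from pair to pair in both genotypes. Averaged over the 45 members, the level was 7.53, 7.06, 6.68 and 6.97 on the Irak1-/- arrays of pairs 1 to 4, against 7.31, 7.32, 6.92 and 6.89 on the wt arrays. The Irak1-/- array of pair 1 was the highest of all 8 for 35 members (15.6% of all genes tested), and the Irak1-/- array of pair 3 the lowest for 32 (29.4% of all genes tested). The range over the 8 arrays had a median of 0.90 among the members and 0.58 among all genes tested, and 41 of 45 members lay above that 0.58. Among 25 mitosis and spindle genes the median range was 1.04. The Irak1-/- array of pair 3 was the lowest for all 25 of them, and that of pair 1 the highest for 15.

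Differences between the pairs were tested with an F test over the pair terms of the same fit, a test chosen after the values were seen. No member passed at an adjusted p under 0.05 and neither did any gene (0% of all genes tested), the lowest adjusted p among members being 0.322. At an unadjusted p under 0.05 there were 24 of 45 members (53.3%), against 9.66% of all genes tested. Of 25 mitosis and spindle genes, a list described further below, 22 had such a p in the F test. Differences between pairs were thus not particular to the members. Without the Irak1-/- array of pair 3 there were 18 of 45 (40%, against 8.60%), and without pair 1 there were 10 of 45 (22.2%, against 7.93%). A pair is an experiment with its own recipients, and these cannot be told apart.

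**Figure D2:**
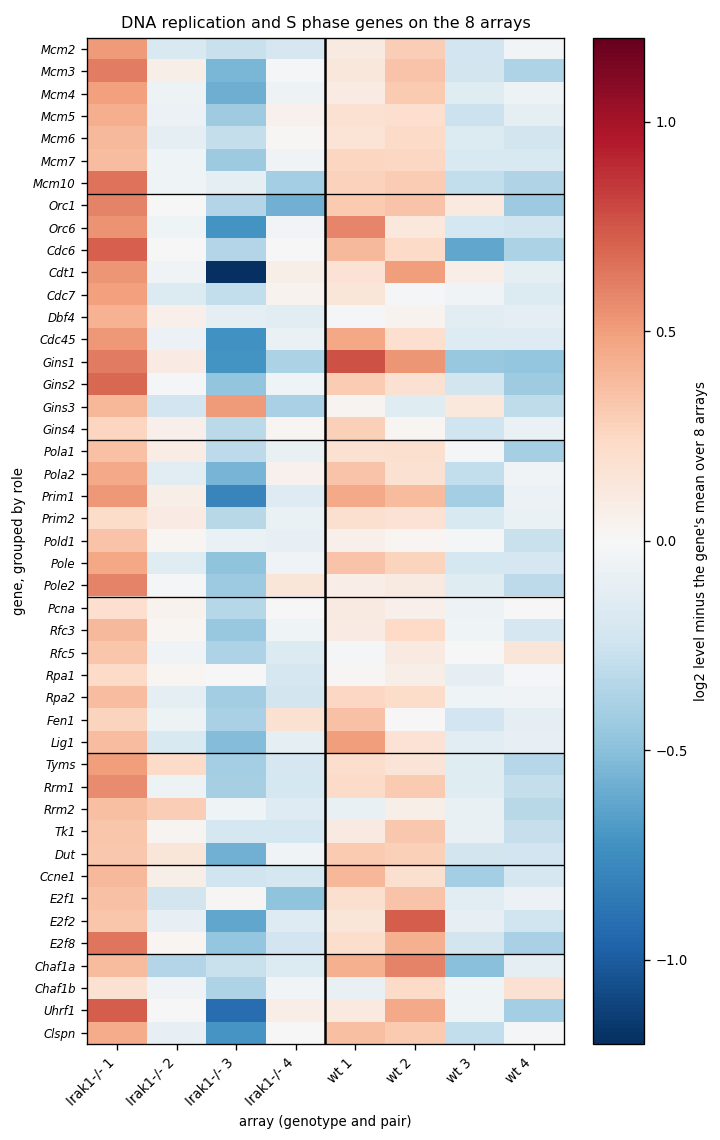
Level of each of the 45 members (rows, grouped by role) on each array (columns, Irak1-/- pairs 1 to 4 left of wt pairs 1 to 4), as log2 level minus the gene's mean over the 8 arrays. The Irak1-/- column of pair 1 is red for nearly all genes, that of pair 3 is blue for most, and the wt columns of pairs 1 and 2 are redder than those of pairs 3 and 4.

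Over all 4 arrays, the spread within a genotype was wider in Irak1-/- cells for most members. The SD over 4 arrays had a median over members of 0.367 in Irak1-/- and 0.260 in wt cells, and 40 of 45 members had the larger SD in Irak1-/- cells, against 59.0% of all genes tested. Without pair 3 the medians were 0.303 in Irak1-/- and 0.251 in wt cells. Then 29 of 45 members had the larger SD in Irak1-/- cells, against 47.4% of all genes tested. The SD without pair 1 was not computed. In pairs 2 to 4 the level averaged over members was 7.06, 6.68 and 6.97 in Irak1-/- cells. In wt cells it was 7.32, 6.92 and 6.89, a spread no narrower. All members were read on the same arrays, so their counts are not independent.

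Myeloid marker levels are set beside those of the members here. Summed on the linear scale they were 708, 826, 1427 and 1553 on the Irak1-/- arrays of pairs 1 to 4. The members averaged 7.53, 7.06, 6.68 and 6.97 on these arrays. On the wt arrays the myeloid sums were 332, 307, 360 and 334, and the members averaged 7.31, 7.32, 6.92 and 6.89. The median difference of the myeloid markers was 0.43, 0.67, 1.37 and 1.31 in pairs 1 to 4, beside 0.23, -0.27, -0.26 and 0.09 for the replication genes. The median difference of the T cell markers was 0.08, 0.05, -0.18 and -0.09. The part of either in the members' values was not tested.

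The MCM helicase, a ring of Mcm2 to Mcm7 that unwinds DNA, did not separate the genotypes but split between pairs. All 7 genes of this group, which includes the ring activator Mcm10, read higher in Irak1-/- cells in pair 1, none did in pair 2, 1 did in pair 3 and 5 did in pair 4. Their log2 differences over the 4 pairs ran from -0.11 to 0.06, with a median of -0.01. Mcm4 (probe set 17328432) read 9.22, 8.67, 8.15 and 8.67 on the Irak1-/- arrays of pairs 1 to 4, against 8.83, 9.05, 8.59 and 8.67 on the wt arrays. The Irak1-/- arrays thus held both the highest and the lowest Mcm4 level, and the groups overlapped. The difference was -0.11 (SE 0.152, limma adjusted p = 0.948).

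Mcm6, whose promoter stretch above holds 3 matches, had its arrays within a narrower band. Mcm6 (probe set 17226550) read 9.46, 8.96, 8.79 and 9.09 in Irak1-/- cells, against 9.24, 9.30, 8.91 and 8.85 in wt cells. Both groups averaged 9.07, and the difference was -0.0028 (SE 0.131, adjusted p = 0.998). Mcm7 (probe set 17454226) read 7.35, 6.93, 6.55 and 6.94 in Irak1-/- cells, against 7.24, 7.23, 6.79 and 6.80 in wt cells, a difference of -0.07 (SE 0.122, adjusted p = 0.952). For both genes the Irak1-/- array of pair 1 was highest and that of pair 3 lowest.

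Mcm2, Mcm3, Mcm5 and Mcm10 followed with differences of -0.07, 0.06, -0.01 and 0.04. Mcm2 had 0.41 in pair 1 and -0.48 in pair 2, and Mcm3 had 0.48 in pair 1 and -0.33 in pair 3. Mcm5 (probe set 17502583) read 7.66, 7.15, 6.80 and 7.27 in Irak1-/- cells, against 7.41, 7.43, 6.97 and 7.11 in wt cells. The groups overlapped, with the Irak1-/- array of pair 1 highest and that of pair 3 lowest.

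Origin licensing and firing genes included the member that varied most. Cdt1 (probe set 17506418), the factor that loads the MCM ring and is destroyed once S phase begins, read 7.32, 6.75, 5.59 and 6.86 on the Irak1-/- arrays, against 6.96, 7.29, 6.87 and 6.67 on the wt arrays. A single array, Irak1-/- of pair 3, lay more than 1 below all others. The difference was -0.32 (SE 0.243, 95% confidence interval -0.87 to 0.24, adjusted p = 0.893), and it was 0.0029 without pair 3. Cdt1 was given in full after its values were seen.

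Cdc6 (probe set 17256225), which works with Cdt1 in loading the helicase, was among the few members higher in Irak1-/- cells in 3 of 4 pairs. It read 7.20, 6.48, 6.13 and 6.49 in Irak1-/- cells, against 6.87, 6.71, 5.86 and 6.10 in wt cells. Only in pair 2 was the wt array the higher one. The difference was 0.19 (SE 0.132, 95% confidence interval -0.11 to 0.49, adjusted p = 0.876), and the SD of its 4 pair differences was 0.284.

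The GINS complex joins Cdc45 and the MCM ring to form the active helicase, and its subunits did not vary alike. Gins1 (probe set 17377525) read 6.66, 6.13, 5.32 and 5.66 in Irak1-/- cells, against 6.81, 6.56, 5.58 and 5.57 in wt cells. Pairs 1 and 2 were above pairs 3 and 4 in both genotypes, and the pair F test gave Gins1 the lowest p among members (unadjusted p = 0.000121, adjusted p = 0.322). Its genotype difference was -0.19 (SE 0.120, adjusted p = 0.862).

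Gins4 (probe set 17508151) read 8.20, 8.004, 7.62 and 7.97 in Irak1-/- cells, against 8.23, 7.97, 7.71 and 7.86 in wt cells, with pair differences of at most 0.10 in size. Gins3 was the 1 member with its highest level on the Irak1-/- array of pair 3, at 6.35, where most members were lowest. Gins2 had 0.38 in pair 1 and 0.37 in pair 4 but -0.19 and -0.25 in pairs 2 and 3. Their differences over all pairs were 0.01 for Gins4, 0.15 for Gins3 and 0.08 for Gins2.

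Of the other origin genes, Orc1 and Orc6, subunits of the origin recognition complex, had differences of -0.17 and -0.13. Orc1 ran from 0.28 in pair 1 to -0.47 in pair 3. Cdc7 and Dbf4, the kinase and its activating subunit that fire origins, had 0.04 and 0.12, and Dbf4 moved by 0.44 in pair 1 and by at most 0.02 in size in the other pairs. Cdc45 had -0.18, with 0.06, -0.27, -0.57 and 0.08 in pairs 1 to 4.

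**Figure D3:**
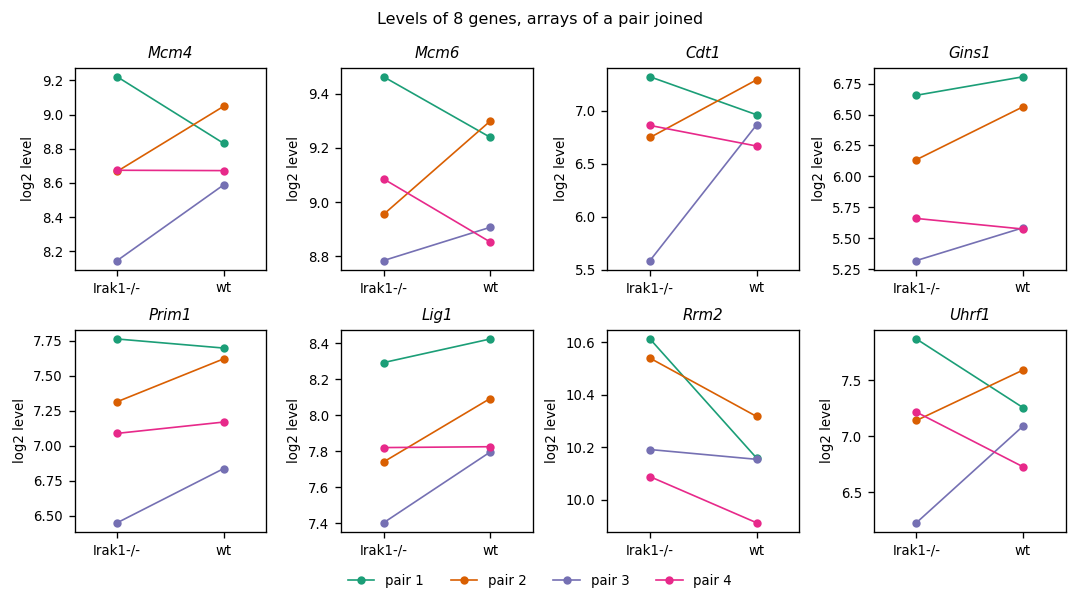
Log2 level (y axis) of 8 genes on the Irak1-/- arrays (left points) and wt arrays (right points), with arrays of a pair joined by a coloured line. The lines cross for Mcm4, Mcm6, Cdt1 and Uhrf1, lie in separate bands by pair for Prim1 and for pairs 1 and 2 above pairs 3 and 4 for Gins1, all slope down to the right for Rrm2 and never do so for Lig1.

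Polymerase and primase genes had small differences, from -0.18 for Prim1 to 0.14 for Pole2. Prim1 (probe set 17238210), the catalytic subunit of the primase that starts each new strand, read 7.76, 7.31, 6.45 and 7.09 in Irak1-/- cells, against 7.70, 7.62, 6.84 and 7.17 in wt cells. Within each genotype the order of the pairs was the same: 1, 2, 4 and 3 from high to low. The genotype difference was -0.18 (SE 0.119, adjusted p = 0.868), with a lower Irak1-/- level in 3 of 4 pairs.

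Pole2 (probe set 17281506), a subunit of the leading strand polymerase, read 7.01, 6.40, 5.98 and 6.56 in Irak1-/- cells, against 6.49, 6.52, 6.27 and 6.10 in wt cells. It was 0.52 and 0.46 higher in Irak1-/- cells in pairs 1 and 4, and below wt in the other two. Its difference was 0.14 (SE 0.157, adjusted p = 0.936). Pole, the catalytic subunit, had -0.11, Pold1, that of the lagging strand polymerase, 0.10, Pola1 and Pola2 of polymerase alpha 0.02 and -0.09, and Prim2 -0.05. Pole had a further probe set, at a lower mean level, which gave 0.15, opposite in sign.

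Clamp, clamp loader and Okazaki fragment genes included the member that read lower in Irak1-/- cells in every pair. Lig1 (probe set 17473856), the ligase that joins Okazaki fragments, read 8.29, 7.74, 7.40 and 7.82 in Irak1-/- cells, against 8.42, 8.09, 7.79 and 7.82 in wt cells. It was the 1 member below wt in 4 of 4 pairs (8.93% of all genes tested), although pair 4 gave only -0.0048. The difference was -0.22 (SE 0.115, 95% confidence interval -0.48 to 0.04, adjusted p = 0.807) and did not pass. It was -0.08 when only the Irak1-/- array of pair 3 and the pair terms were dropped, and -0.16 without pair 3.

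Rpa2 (probe set 17419469), part of the complex that coats single-stranded DNA, read 7.75, 7.28, 6.97 and 7.16 in Irak1-/- cells, against 7.63, 7.61, 7.33 and 7.34 in wt cells. The Irak1-/- array was lower in 3 of 4 pairs, and the difference was -0.19 (SE 0.121, adjusted p = 0.864). Pcna (probe set 17391971), the sliding clamp that holds polymerases on DNA, read 11.05, 10.89, 10.50 and 10.84 in Irak1-/- cells, against 10.96, 10.91, 10.78 and 10.84 in wt cells. Apart from the Irak1-/- array of pair 3, all Pcna values lay between 10.78 and 11.05, and the difference was -0.05 (SE 0.112, adjusted p = 0.960).

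Rfc3 and Rfc5, which load the clamp, had differences of -0.04 and -0.13, Rpa1 0.03 and Fen1, the nuclease that trims Okazaki fragments, 0.00032. Rpa1 had the narrowest range of all members over the 8 arrays, at 0.44. A second Rpa1 probe set of nearly the same mean level gave a difference of -0.12, with -0.65 in pair 3 where the one used gave 0.12. A second Fen1 probe set, at a mean level of 3.76, gave -0.09.

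Nucleotide supply genes included the 1 member that read higher in Irak1-/- cells in every pair. Rrm2 (probe set 17547690), the regulatory subunit of ribonucleotide reductase, read 10.61, 10.54, 10.19 and 10.09 in Irak1-/- cells, against 10.16, 10.32, 10.15 and 9.91 in wt cells. It was higher by 0.45, 0.22, 0.04 and 0.18 in pairs 1 to 4, a pattern of signs that 5.26% of all genes tested shared. The difference was 0.22 (SE 0.114, 95% confidence interval -0.04 to 0.48, adjusted p = 0.798) and did not pass. A second Rrm2 probe set (17274540) gave 0.33, -0.17, -0.51 and 0.26 in the same pairs and a difference of -0.02, so the 2 probe sets did not give the same direction.

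Dut (probe set 17375641), which clears dUTP so that uracil stays out of DNA, read 8.84, 8.66, 7.94 and 8.47 in Irak1-/- cells, against 8.83, 8.80, 8.29 and 8.29 in wt cells. Both groups were lower in pairs 3 and 4 than in pairs 1 and 2, and the difference was -0.08 (SE 0.122, adjusted p = 0.950). The second Dut probe set gave -0.12. Tyms, thymidylate synthase, had 0.06, Rrm1, the large subunit of ribonucleotide reductase, -0.05, and Tk1, the thymidine kinase of S phase, -0.03. All 5 genes of this group read higher in Irak1-/- cells in pair 1, and all 5 in pair 4. For Dut the difference in pair 1 was only 0.0063, and its second probe set gave -0.07 there.

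Cyclin E and E2F genes, the regulators that commit cells to S phase, had differences from -0.27 to 0.01. E2f2 (probe set 17420024), an activating E2F, read 6.75, 6.32, 5.80 and 6.26 in Irak1-/- cells, against 6.57, 7.14, 6.32 and 6.18 in wt cells. The wt array of pair 2 stood above all others, and the Irak1-/- array of pair 3 was the lowest. Pairs 2 and 3 gave -0.83 and -0.52, and pairs 1 and 4 gave 0.19 and 0.08. The difference over 4 pairs was -0.27 (SE 0.175, adjusted p = 0.865).

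E2f1 (probe set 17393160), the founding activating E2F, read 5.38, 4.81, 5.04 and 4.55 in Irak1-/- cells, against 5.22, 5.37, 4.91 and 4.96 in wt cells. Its pairs split 2 against 2, and the difference was -0.17 (SE 0.149, adjusted p = 0.908). Ccne1 (probe set 17489886), cyclin E1, which drives entry into S phase with Cdk2, read 7.44, 7.12, 6.82 and 6.84 in Irak1-/- cells, against 7.45, 7.25, 6.65 and 6.85 in wt cells. Its pairs differed by at most 0.17 in size and the difference was 0.01 (SE 0.108, adjusted p = 0.995). E2f8, a repressor that closes the S phase programme, had -0.01, with 0.43 in pair 1 and -0.40 in pair 2.

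Genes of chromatin copying and the replication checkpoint all had negative differences, from -0.20 to -0.05, and none passed. Uhrf1 (probe set 17338747), which brings the maintenance DNA methyltransferase to newly copied DNA, read 7.87, 7.14, 6.23 and 7.21 in Irak1-/- cells, against 7.25, 7.59, 7.09 and 6.73 in wt cells. It was the member with the largest positive difference in pair 1 (0.61) and in pair 4 (0.49), and only Cdt1 was further below wt in pair 3, where Uhrf1 had -0.86. Over 4 pairs these left a difference of -0.05 (SE 0.234, adjusted p = 0.982), and 0.22 without pair 3.

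Clspn (probe set 17418592), an adaptor of the checkpoint kinase Chk1, read 6.86, 6.31, 5.70 and 6.41 in Irak1-/- cells, against 6.77, 6.72, 6.12 and 6.40 in wt cells, a difference of -0.18 (SE 0.129, adjusted p = 0.880). Chaf1a (probe set 17338701), the large subunit of the chromatin assembly factor CAF-1, read 6.82, 6.08, 6.17 and 6.27 in Irak1-/- cells, against 6.86, 7.03, 5.93 and 6.32 in wt cells. Its difference of -0.20 (SE 0.182, adjusted p = 0.911) came mostly from pair 2, at -0.95, the lowest of any member there. Its partner Chaf1b had -0.13.

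**Figure D4:**
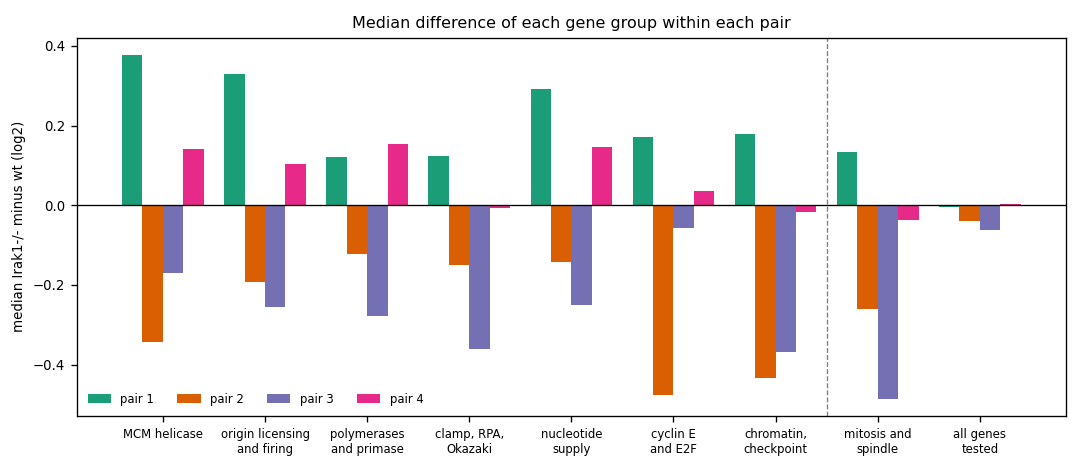
Median difference between Irak1-/- and wt arrays (y axis, log2) of each role group of the members, of the mitosis and spindle genes and of all genes tested (x axis), 1 bar per pair. In pair 1 the medians of the 7 role groups are all above 0, in pairs 2 and 3 all below 0, and the bars of all genes tested stay close to 0.

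Other genes of the pathway, from lists chosen with earlier results of these data known, were also tested. No gene passed in either direction among 34 other replisome and origin genes, 14 other nucleotide supply genes, 27 other regulators of G1 and S phase and 19 checkpoint and repair genes tested. At an unadjusted p under 0.05 limma gave 1 higher and 0 lower in these lists together. Over all genes tested the shares were 2.88% higher and 3.82% lower. Their median differences were -0.02, 0.06, -0.03 and 0.0034, beside -0.03 over all genes tested. Within pairs 1 to 4, 49.5%, 42.7%, 42.5% and 50.2% of all genes tested read higher in Irak1-/- cells. Of the 34 replisome genes 24, 8, 7 and 25 did so, and of the 14 nucleotide supply genes 11, 2, 5 and 10. Of the 19 checkpoint and repair genes 16, 2, 7 and 15 did so. The 27 regulators of G1 and S phase gave 24, 6 and 8 in pairs 1 to 3 but 13 in pair 4, close to the share of all genes there.

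The 1 gene with a small unadjusted p was Rbl2, which encodes p130, a retinoblastoma family protein that with E2F4 represses S phase genes in quiescent cells. Rbl2 read 9.55, 9.71, 9.24 and 9.33 in Irak1-/- cells, against 8.77, 8.98, 8.82 and 8.50 in wt cells. All Irak1-/- arrays lay above all wt arrays, as they did for 1.17% of all genes tested. The difference was 0.69 (SE 0.116, limma adjusted p = 0.124), which did not pass. Next in that list were Cdkn1b, the cyclin-dependent kinase inhibitor p27, with 0.23 (adjusted p = 0.792), and Rbl1, which encodes p107, with -0.20 (adjusted p = 0.865).

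Genes with the smallest p in the other lists had adjusted p values of 0.812 and above. They were Timeless (-0.26), a component that protects the fork, and Rnaseh2b (-0.18) and Rnaseh2a (-0.15) of the enzyme that removes ribonucleotides from DNA. In nucleotide supply they were Cad (-0.17), which starts pyrimidine synthesis, Tk2 (0.22), the mitochondrial thymidine kinase, and Gart (-0.17) of purine synthesis. In checkpoint and repair they were Wee1 (-0.36), a kinase that restrains entry into mitosis, and Hus1 (0.17) and Rad9a (0.14) of a checkpoint clamp.

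Mitosis and spindle genes, the programme that follows S phase, had medians of the same sign as the replication genes in pairs 1 to 3. Higher in Irak1-/- cells were 18, 1, 0 and 9 of the 25 in pairs 1 to 4. Of 25 such genes 24 had negative differences, against 7738 of 13308 genes tested, and the median was -0.16. These genes were read on the same arrays, so their count is not independent. Their medians were 0.13, -0.26, -0.49 and -0.04 in pairs 1 to 4, beside 0.23, -0.27, -0.26 and 0.09 for the replication genes. None passed at an adjusted p under 0.05. At an unadjusted p under 0.05, 1 of the 25 was lower, against 3.82% of all genes tested. Bub1b, a spindle checkpoint kinase, had -0.39 (adjusted p = 0.708), Kif20a, a mitotic motor, -0.31 and Tpx2, a spindle assembly factor, -0.26. Without pair 3, 7 of the 25 were positive and the median of the list was -0.05. The difference between both lists was not tested.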

How the data were processed

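Gene expression was measured on 8 Affymetrix arrays, from TRIzol RNA labelled with biotin, per the labels' protocols. Values were used as the authors deposited them, as log2 levels for 41345 probe sets. Their log base was taken from the values (0.681 to 14.0), and no label says how they were background corrected, summarized or normalized. Array medians lay between 4.25 and 4.31, and arrays shared identical values at no more than 0.237% of probe sets. With 4 arrays a group, precision is limited.

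Of the probe sets, 23521 carried 1 symbol, 1814 several and 16010 none. Every one of 22180 genes kept its probe set of highest mean, and genes with a mean under the 40th percentile (3.90) were left out, which left 13308. The genotype comparison used lmFit and eBayes of limma 3.58.1 (R 4.3.3) with the batch label as a block, two-sided, with Benjamini-Hochberg adjustment over all 13308 genes. The pairing comes from the labels: arrays of a batch share pooled recipients. As a check, deviations from group means correlated at 0.185, 0.143, 0.200 and 0.0799 within pairs 1 to 4, and in pair 1 an array of another pair correlated higher (0.226). P values for genotype rest on the spread of the differences within the 4 pairs, which eBayes adjusts using all genes. The pair F test sets the differences between pairs against that same spread.

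The members and the gene lists were chosen with earlier results of these data known. Genes given by array are, in each role, the 2 with the smallest p and the 1 with the highest mean; Mcm5 and Cdt1 were added after their values were seen. Of each pathway list the 3 with the smallest p are named. The fit was tested on simulated data. It was repeated without the block, with the block as random, after quantile normalization or median centring, with other level filters, on the mean of probe sets, with trend and robust settings of eBayes, and without single pairs or the Irak1-/- array of pair 3. The pair F test and the last of these with the block kept were added after the data were seen.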

Additional observations from a re-analysis of the deposited data

Results flagged for a closer look

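Mcm2, a subunit of the helicase ring, read 7.45 on the Irak1-/- array of pair 1, while the next Irak1-/- array read 6.76 and the lowest 6.67. The gap of that array to the next made up 0.889 of the group's range, above Dixon's critical value for 4 samples. It was the 1 such case among 90 groups of 4 arrays examined (45 members in each genotype), and chance alone gives about 1 in 20.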

How the results depend on the processing

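No member was called higher or lower in Irak1-/- cells under any of the 14 alternatives, and none differed between pairs at an adjusted p under 0.05 under those with pair terms. The lowest adjusted p for genotype was 0.720, with eBayes trend and robust settings. The median of the members was -0.05 without the replicate block as with it, ran from -0.14 to 0.07 when pairs or the Irak1-/- array of pair 3 were left out, and from -0.06 to -0.05 otherwise. Leaving out the replicate block changed no call of a member. With 1 array of each genotype in every pair, the block cannot change a difference. Signs and the median were therefore bound to stay the same. Signs changed for 14 members without pair 3, 11 without pair 2, 7 without pair 1, 6 without pair 4 and 21 without the Irak1-/- array of pair 3 in a fit without pairs, none of them called. Over all genes the number higher was 9, and 14 with a random block, 14 with median centring and 6 to 16 with arrays left out; the number lower was 1, and 2 with a random block, 2 with median centring, 2 with a filter at the 60th percentile and 3 with eBayes trend and robust settings. With those settings 1 gene over all genes differed between pairs. Fewer arrays or a changed filter alter the residual degrees of freedom or the number of genes tested; the cause of the other changes was not tested.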
